A study of Mus musculus with 31 samples.

Results

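The miR-15 and miR-16 family comprised 9 mature miRNAs of the 507 in the small RNA table of mouse embryonic stem cells (mESCs). The members were taken by name, as every entry for miR-15a, miR-15b, miR-16 and miR-195a, and both arms of each hairpin were kept: miR-15a-5p and -3p, miR-15b-5p and -3p, miR-16-5p, miR-16-1-3p, miR-16-2-3p, and miR-195a-5p and -3p. All 9 were measured in 16 small RNA libraries, and RefSeq gave a mature sequence for each.

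A miRNA hairpin is cut by Drosha and Dicer into a duplex, and one of its arms is usually loaded into an Argonaute protein and kept while the other is degraded. The loaded miRNA finds mRNAs by pairing of its seed, the bases 2 to 8, with their 3'UTRs, and so lowers their stability and translation. The miR-15/16 family is best known for restraining the cell cycle through D and E cyclins, Cdk6, Wee1 and Chek1, and for repressing the survival factor Bcl2.

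The 5p members are shown because they share the seed, given in capitals, that defines the family. Below them stand 2 relatives from other genes, of which miR-497a-5p has the same seed and miR-503-5p keeps only bases 2 to 7 of it.
miR-15a-5p: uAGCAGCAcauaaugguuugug
miR-15b-5p: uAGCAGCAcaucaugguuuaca
miR-16-5p: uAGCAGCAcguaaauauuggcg
miR-195a-5p: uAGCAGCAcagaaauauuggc
miR-497a-5p: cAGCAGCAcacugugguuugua
miR-503-5p: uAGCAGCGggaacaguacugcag
Counted from the 5' end without gaps, miR-16-5p and miR-195a-5p were identical at 19 of 21 positions and miR-15a-5p and miR-15b-5p at 18 of 22, whereas miR-15b-5p and miR-16-5p matched at 14 of 22. In the table, 6 miRNAs carried the full seed, the 4 members above, miR-497a-5p and miR-322-5p.

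The 3p arms have different seeds from the 5p arms, and 3 of them are shown because they rose when Ago2 was absent.
miR-15b-3p: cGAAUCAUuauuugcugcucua
miR-16-1-3p: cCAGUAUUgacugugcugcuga
miR-195a-3p: cCAAUAUUggcugugcugcucc

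The family comes from 3 clusters of neighbouring hairpins (mm10/GRCm38), and the distances given are between mature sequences, not between hairpins. Mir15a and Mir16-1 lie 80 nt apart in an intron of Dleu2, a non-coding RNA gene, on the minus strand (miR-15a-5p, chr14:61632075-61632096; miR-16-1-3p, chr14:61631894-61631915). Mir15b and Mir16-2 lie 83 nt apart in an intron of Smc4, which encodes a condensin subunit, on the plus strand (miR-15b-5p, chr3:69009775-69009796; miR-15b-3p, chr3:69009813-69009834; miR-16-2-3p, chr3:69009960-69009981). Mir195a lies near Mir497 on the plus strand of chromosome 11 (miR-195a-5p, chr11:70235062-70235082, and miR-195a-3p, chr11:70235100-70235121), with 310 nt between miR-497a-5p and miR-195a-5p. No other annotated gene overlapped Mir195a.
miR-16-5p is made from both Mir16-1 and Mir16-2, so its reads cannot be assigned to one of them. Its 2 loci are told apart only by the bases around it, of which 4 on each side are shown in lower case.
Mir16-1: gccuUAGCAGCACGUAAAUAUUGGCGuuaa
Mir16-2: acucUAGCAGCACGUAAAUAUUGGCGuagu

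The study asks how Trim71, an RNA-binding protein of early embryos and stem cells, acts on Ago2 mRNA and through it on miRNAs. In all, 4 genotypes of mESCs were profiled in a design crossing a deletion in the Ago2 3'UTR with loss of Ago2: wild-type cells (WT), cells in which the Trim71-binding region of the Ago2 3'UTR was deleted on both alleles (CLIPΔ), cells lacking Ago2 (Ago2 KO), and cells with both changes (Ago2 KO/CLIPΔ). Each had 4 small RNA libraries, called A to D for WT and CLIPΔ and 1 to 4 for the genotypes without Ago2, which the labels name biological replicates. mRNA was sequenced in 2 libraries per genotype with Ago2 and in 4 per genotype without it. Per the paper, all lines derive from ES-E14TG2a, and WT denotes mESCs with a FLAG tag inserted at Trim71. The paper lists the edited lines as carrying this tag too. All cells were grown in 2i medium with Lif, and the labels do not say which clone of a genotype a library came from. The labels do not name separate cultures either, so that the tests measure the spread between these libraries, which may in part be technical.

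Reads were recovered from the steps of the deposited values for the 442 of 507 miRNAs with a RefSeq mature length. In these miRNAs the small RNA libraries held 5315416 to 8190570 reads for WT, 3024456 to 7658400 for CLIPΔ, 807676 to 1047896 for Ago2 KO and 855949 to 1289831 for Ago2 KO/CLIPΔ. Depth and naming of the libraries thus followed the Ago2 genotype, and what goes with depth cannot be told apart from loss of Ago2. Ago2 mRNA was 28.2 and 21.6 TPM in WT and 27.3 and 20.3 TPM in CLIPΔ, and it was 1.67 to 2.29 TPM in Ago2 KO and 1.51 to 2.87 TPM in Ago2 KO/CLIPΔ. Markers of naive mESCs (7 of 8 in the table) summed to 6236 to 6999 TPM in WT and 5650 to 5874 in CLIPΔ, without overlap. The naive sums were 5847 to 6312 TPM in Ago2 KO and 5719 to 5891 in Ago2 KO/CLIPΔ. Markers of fibroblasts (3 of 4 in the table) summed to 1.32 to 3.73 TPM, of primitive endoderm (4 of 4) to 2.52 to 6.40 TPM and of mesoderm (4 of 4) to 7.76 to 25.5 TPM. The summed trophoblast markers (4 of 4, from Eomes and Cdx2, with Elf5 and Krt7 under 1 TPM) were 57.9 to 60.7 TPM in WT and 37.0 to 39.7 in CLIPΔ, 38.0 to 70.02 in Ago2 KO and 38.2 to 58.8 in Ago2 KO/CLIPΔ. Eomes was 52.9 and 46.1 TPM in WT and 26.3 and 24.7 in CLIPΔ, while Cdx2 was 7.20 and 11.8 in WT and 10.2 and 14.85 in CLIPΔ. The summed neural markers (3 of 4, from Nes and Tubb3) were 114 to 118 TPM in WT, 160 to 165 in CLIPΔ, 163 to 176 in Ago2 KO and 125 to 172 in Ago2 KO/CLIPΔ. The 2 genes moved apart without Ago2, Nes at 73.7 and 65.95 TPM in WT and 26.4 to 29.5 in Ago2 KO and Tubb3 at 40.1 and 51.55 TPM in WT and 136 to 147 in Ago2 KO. Their part in the results was not tested. In such bulk samples fewer cells with a transcript and less of it per cell cannot be told apart.

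Levels are given as RPM, the deposited TPM, which is per length, rescaled to the same miRNA total in every library. The 9 members together made up 0.143% ± 0.0164 (SD, n = 4) of the miRNA total in WT, 0.167% ± 0.0274 in CLIPΔ, and 0.211% ± 0.00652 and 0.177% ± 0.00909 in Ago2 KO and Ago2 KO/CLIPΔ, so the family was a minor part of the miRNA pool. On this scale miR-15b-5p and miR-15a-5p had the highest levels in WT, miR-15a-5p being the higher in libraries A and B and miR-15b-5p in C and D. miR-15b-5p ranked between 106 and 123 of the 507 miRNAs in every genotype. miR-15a-5p ranked 135 in WT and 118 in CLIPΔ but 276 and 272 in the genotypes without Ago2. The reverse held for miR-195a-3p, which ranked 341 and 444 with Ago2 and 173 and 187 without it.

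**Figure D1:**
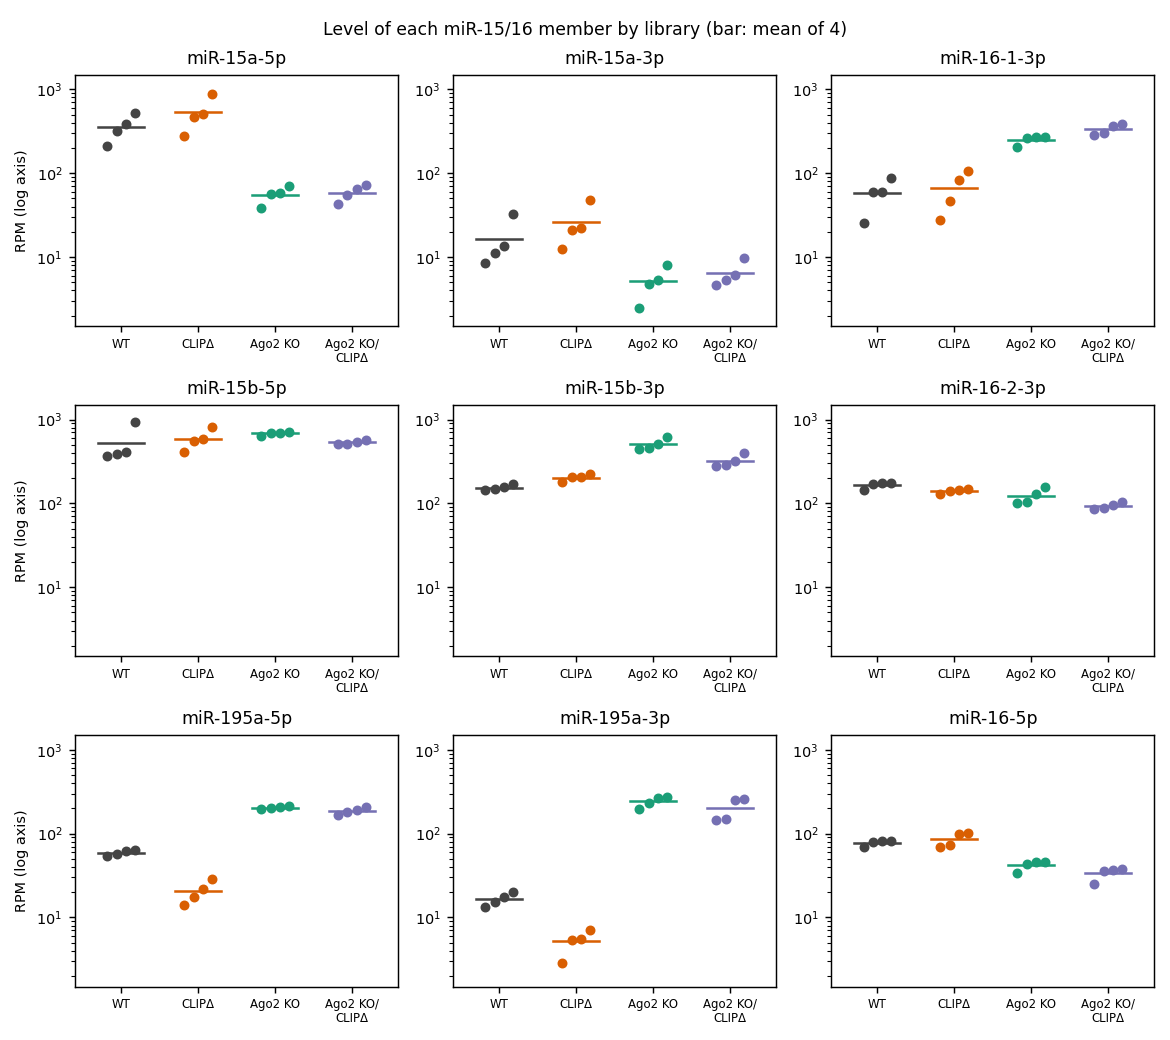
Level of each of the 9 members in RPM (log axis) in every small RNA library, by genotype; dots are libraries ordered by value and bars are means of 4. miR-195a-3p lies between 2.85 and 20.0 RPM in the 8 libraries with Ago2 and between 143 and 271 in the 8 without, while miR-15a-5p moves the other way.

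The summed levels of the 2 arms changed differently when Ago2 was absent, but the members of each arm did not move together. The summed 5p members were 845 to 1273 RPM in WT, 1018 to 1592 in CLIPΔ, 948 to 1035 in Ago2 KO and 763 to 862 in Ago2 KO/CLIPΔ. The summed 3p members were 338 to 449 RPM in WT, 383 to 484 in CLIPΔ, 1019 to 1227 in Ago2 KO and 897 to 1046 in Ago2 KO/CLIPΔ. The 3p sums of the libraries with and without Ago2 did not overlap, whereas those of the 5p members did. In the means, the 5p members exceeded the 3p members in WT (1020 ± 196 against 410 ± 49.8 RPM, SD, n = 4) and fell below them in Ago2 KO (982 ± 39.5 against 1127 ± 101 RPM). The 5p sums and means hold miR-16-5p at its deposited value, which may count it low. All these sums are a description with no test.

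**Figure D2:**
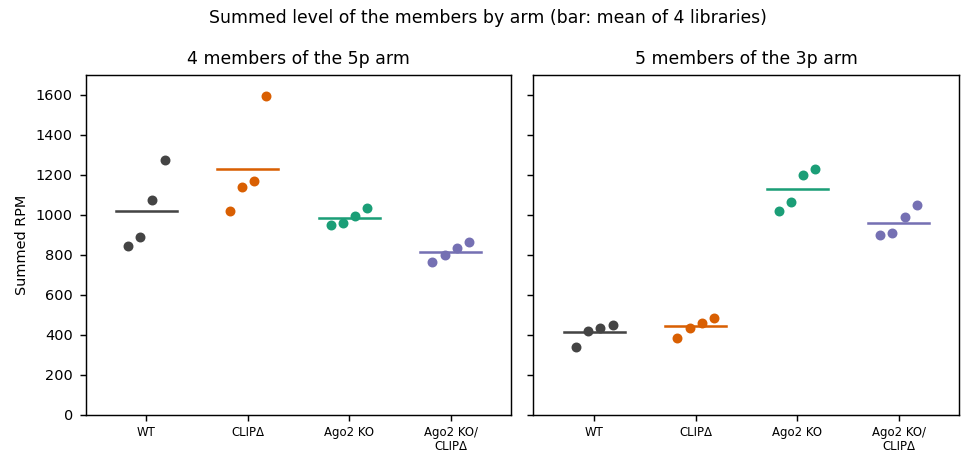
Summed RPM of the 4 members from 5p arms and of the 5 from 3p arms in every small RNA library, by genotype; bars are means of 4 libraries. The 3p sums are 338 to 484 RPM with Ago2 and 897 to 1227 without it.

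CLIPΔ cells were compared with WT cells to ask what loss of the Trim71-binding region in Ago2 mRNA does to the family. The clearest difference was in miR-195a, whose arms were both lower in CLIPΔ. miR-195a-5p was 54.8, 61.2, 62.9 and 56.5 RPM in WT libraries A to D and 21.6, 28.7, 17.4 and 14.02 RPM in CLIPΔ libraries A to D. Its 3p arm was 17.7, 13.3, 20.0 and 15.1 RPM in WT (80 to 135 reads) and 7.16, 2.85, 5.39 and 5.54 RPM in CLIPΔ (17 to 47 reads). For each arm, every CLIPΔ library lay below every WT library. Both were below the minimum mean of 100 TPM of this comparison and entered only the fit without a filter, in which 26.8% of 507 miRNAs passed an adjusted p of 0.05. There miR-195a-5p fell by 1.53 on the log2 scale (SE 0.25, adjusted p = 0.00131, limma), a 2.88-fold difference, and miR-195a-3p by 1.53 (SE 0.29, adjusted p = 0.00285). With edgeR on the recovered reads the changes were -1.66 (adjusted p = 0.00157) and -1.83 (adjusted p = 0.00254).

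Of the other members, miR-15a-5p was 381, 517, 317 and 209 RPM in WT and 513, 884, 472 and 279 RPM in CLIPΔ. The groups overlapped, but the CLIPΔ library was the higher one under each of the 4 letters. Its log2 difference was 0.55 (SE 0.37, adjusted p = 0.307), and with the letter as a block adjusted p = 0.00599, in a fit in which 55.1% of the miRNAs passed. miR-15b-3p was 169, 143, 158 and 147 RPM in WT and 204, 180, 221 and 208 RPM in CLIPΔ. These groups did not overlap; the log2 difference was 0.40 (SE 0.16, adjusted p = 0.0966), and adjusted p = 0.0324 with the block. It also passed with all 16 libraries in the fit (adjusted p = 0.0372, where 46.2% of miRNAs passed) and with let-7 and miR-98 left out of the library total (log2 difference 0.48, adjusted p = 0.0488).

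miR-16-2-3p, from the same cluster as miR-15b, was 174, 173, 170 and 143 RPM in WT and 143, 147, 139 and 130 RPM in CLIPΔ, a log2 difference of -0.24 (SE 0.16, adjusted p = 0.307). miR-15b-5p was 369, 415, 385 and 940 RPM in WT, where library D stood apart, and 413, 579, 550 and 805 RPM in CLIPΔ (0.23, SE 0.33, adjusted p = 0.644). Thus none of the 4 members above the minimum mean passed in this comparison, in which 27.8% of 227 miRNAs did, and 1 of them, miR-15b-3p, had an unadjusted p under 0.05. Without the minimum, miR-16-5p (log2 difference 0.12, adjusted p = 0.703), miR-16-1-3p (0.12, adjusted p = 0.853) and miR-15a-3p (0.65, adjusted p = 0.325; 0.0161 with the block) did not pass either.

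The ratio of 2 members within a library does not depend on how libraries are scaled. The ratio of miR-15b-3p to miR-16-2-3p, which come from one intron of Smc4, was 0.823 to 1.03 in WT and 1.23 to 1.602 in CLIPΔ, without overlap. Its log2 difference was 0.64 with a two-sided exact permutation p = 0.0286, the smallest that 4 against 4 libraries allow, and p = 0.2 after adjustment over 14 ratio comparisons. Because miR-195a-5p and miR-497a-5p lie in one cluster, their ratio was compared as well, and it was 0.696 ± 0.0913 (SD, n = 4) in WT and 0.645 ± 0.0955 in CLIPΔ (log2 difference -0.11, exact permutation p = 0.486). miR-497a-5p was lower by itself in CLIPΔ, at 86.1 ± 16.4 RPM in WT and 32.0 ± 9.42 RPM in CLIPΔ (log2 change -1.43, adjusted p = 0.00276 without the minimum mean). None of the 14 ratio comparisons passed after adjustment.

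**Figure D3:**
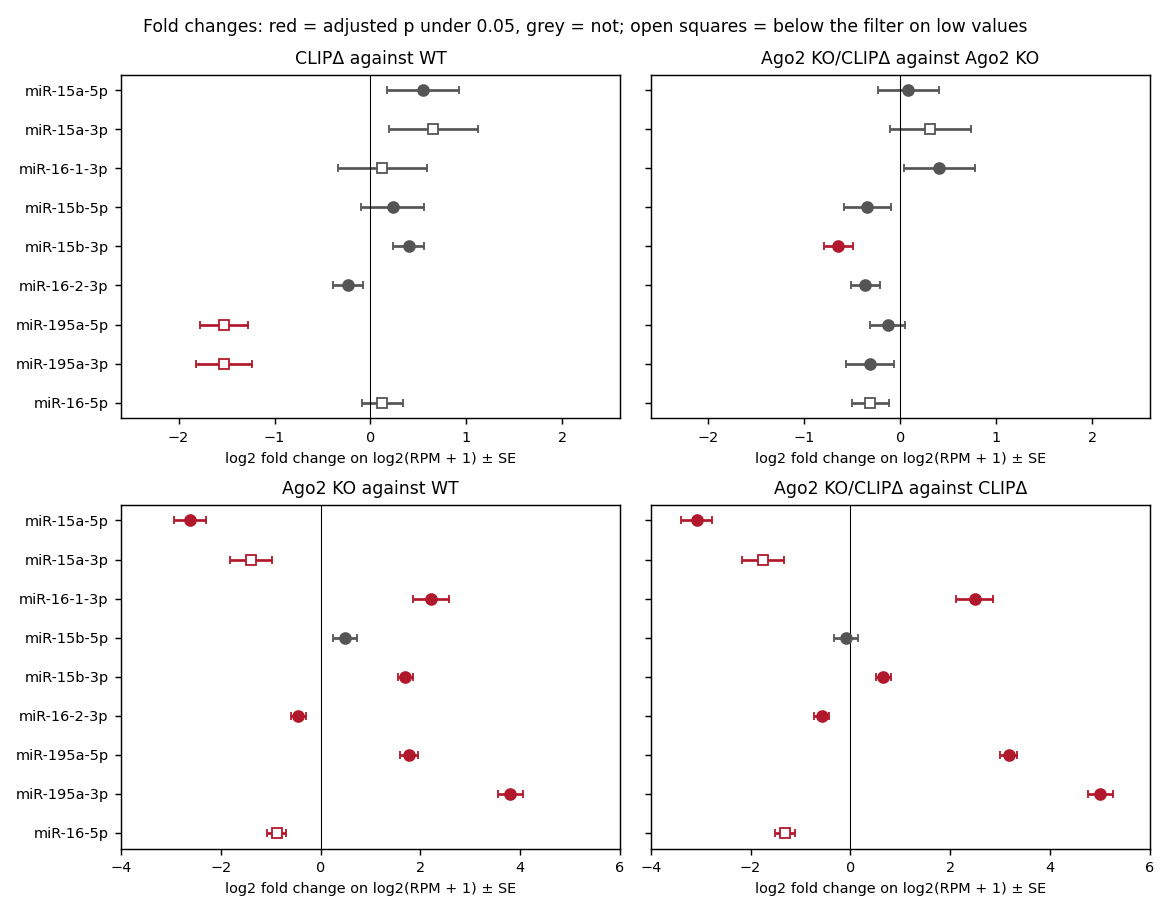
log2 fold change of each member (± SE, on log2(RPM + 1)) for CLIPΔ against WT, Ago2 KO against WT, Ago2 KO/CLIPΔ against Ago2 KO, and Ago2 KO/CLIPΔ against CLIPΔ; open squares are members below the minimum mean, taken from the fit without a filter. miR-195a-3p has the largest rise without Ago2 (3.80 and 5.01) and miR-15a-5p the largest fall (-2.62 and -3.08).

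Loss of Ago2 was compared in cells with the intact Ago2 3'UTR, as Ago2 KO against WT. The largest rise was that of miR-195a-3p, which was 268, 271, 197 and 232 RPM in Ago2 KO against 13.3 to 20.0 RPM in WT, a 13.9-fold difference (log2 change 3.80, SE 0.25, adjusted p = 3.29e-10). Its partner arm miR-195a-5p was 208, 196, 211 and 200 RPM in Ago2 KO against 54.8 to 62.9 RPM in WT (1.78, SE 0.18, adjusted p = 5.83e-08). The 3p arm thus went from below the 5p arm in WT (5p to 3p ratio 3.65 ± 0.703, SD, n = 4) to about its level in Ago2 KO (0.857 ± 0.151).

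The Dleu2 cluster changed in opposite directions. miR-15a-5p fell to 57.5, 38.0, 69.7 and 56.3 RPM in Ago2 KO from 209 to 517 RPM in WT, a 6.15-fold difference (log2 change -2.62, SE 0.32, adjusted p = 6.55e-07). By contrast, miR-16-1-3p rose to 262, 204, 268 and 272 RPM from 25.3 to 87.3 RPM in WT, a 4.62-fold difference (2.21, SE 0.37, adjusted p = 2.55e-05). For both, no Ago2 KO library lay within the WT range. miR-15a-3p was 8.50 to 32.7 RPM in WT and 2.45 to 8.05 RPM in Ago2 KO, where it rested on 2 to 7 reads per library. In the fit without a filter it fell (-1.40, adjusted p = 0.00599). The ratio of miR-15a-3p to miR-16-1-3p, the 3p arms of the 2 neighbouring hairpins, was 0.279 ± 0.0904 in WT and 0.0205 ± 0.00844 in Ago2 KO.

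In the Smc4 cluster, miR-15b-3p rose to 508, 619, 445 and 452 RPM in Ago2 KO from 143 to 169 RPM in WT (1.70, SE 0.15, adjusted p = 1.1e-08). miR-16-2-3p was 158, 128, 103 and 100 RPM in Ago2 KO and overlapped WT in library 1 alone (-0.45, SE 0.15, adjusted p = 0.0125). Without Ago2 KO library 4 its change of -0.36 no longer passed (adjusted p = 0.0521). The opposite changes of miR-15b-3p and miR-16-2-3p took their ratio from 0.939 ± 0.0867 in WT to 4.22 ± 0.702 in Ago2 KO. The major arm, miR-15b-5p, was 636, 689, 711 and 689 RPM in Ago2 KO, within the WT range of 369 to 940 RPM (0.49, SE 0.25, adjusted p = 0.0768). That call rested on WT library D, without which the change was 0.80 (adjusted p = 0.000322). Its direction rested on the scaling, being 0.09 with median-of-ratios scaling and -0.05 with edgeR.

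miR-16-5p, whose 2 loci fall into both clusters, was 81.7, 81.1, 79.9 and 68.3 RPM in WT and 45.9, 33.7, 42.9 and 45.4 RPM in Ago2 KO. It fell in the fit without a filter (-0.88, adjusted p = 0.00051), in which 71.6% of the miRNAs passed. Its values moved in steps of 0.5 reads, as a mean over 2 loci would, so that its level cannot be set against those of the other members.

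Together, 6 of the 7 members above the minimum mean passed, with 4 higher and 2 lower, where 82.7% of 249 miRNAs passed. The count is no support for a response of the family, as miR-195a-5p, miR-195a-3p and miR-16-1-3p reached the minimum through their levels in the genotypes without Ago2. The median log2 change of all tested miRNAs was 0.37, and -0.03 with median-of-ratios scaling. Under the latter the 6 members kept their directions, with miR-195a-3p at 3.41, miR-16-1-3p at 1.81, miR-195a-5p at 1.38, miR-15b-3p at 1.30, miR-16-2-3p at -0.85 and miR-15a-5p at -3.02.

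The same loss was compared in cells without the Trim71-binding region, as Ago2 KO/CLIPΔ against CLIPΔ. miR-195a-3p was 253, 256, 150 and 143 RPM in Ago2 KO/CLIPΔ against 2.85 to 7.16 RPM in CLIPΔ, a 32.2-fold difference (log2 change 5.01, SE 0.25, adjusted p = 5.1e-12). miR-195a-5p was 206, 191, 182 and 167 RPM against 14.02 to 28.7 RPM, an 8.997-fold difference (3.17, SE 0.18, adjusted p = 1.99e-11). Thus the 2 arms of miR-195a had the largest rises of the family here, and both had reached the minimum mean through their levels without Ago2.

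miR-16-1-3p was 300.1, 289, 365 and 384 RPM against 27.4 to 106 RPM (2.49, adjusted p = 5.96e-06). miR-15a-5p was 54.5, 65.6, 71.3 and 42.7 RPM against 279 to 884 RPM, 8.47-fold lower (-3.08, adjusted p = 6.57e-08). The other passing members were miR-15b-3p, at 324, 404, 290 and 277 RPM (0.66, adjusted p = 0.000549, but 0.29 and adjusted p = 0.0966 with edgeR), and miR-16-2-3p, at 104, 87.5, 95.9 and 86.2 RPM (-0.58, adjusted p = 0.00216). miR-15b-5p was 564, 517, 546 and 517 RPM and did not pass (-0.09, adjusted p = 0.744). Again 6 of 7 members passed, where 83.1% of 249 miRNAs did, and for the same reason this count is no support for a response of the family. Without the filter, where 74.4% passed, miR-16-5p (37.7, 25.2, 35.6 and 36.6 RPM in Ago2 KO/CLIPΔ) changed by -1.31 (adjusted p = 5.88e-06) and miR-15a-3p (4.63 to 9.84 RPM, 4 to 9 reads) by -1.74 (adjusted p = 0.000987). The 2 comparisons for loss of Ago2 share no libraries, but both follow the division by depth.

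Without Ago2, the deletion in its 3'UTR can be examined apart from the protein, as Ago2 KO/CLIPΔ against Ago2 KO. Of the 7 members tested, 1 passed, where 22.1% of 249 miRNAs did. It was miR-15b-3p, at 445 to 619 RPM in Ago2 KO and 277 to 404 RPM in Ago2 KO/CLIPΔ, which did not overlap (-0.65, SE 0.15, adjusted p = 0.00348). With libraries 1 and 2, and 3 and 4, of each genotype averaged, since those of Ago2 KO/CLIPΔ resembled each other in that way, it no longer passed (-0.64, adjusted p = 0.0912). The numbers 1 to 4 as a block, a pairing that the data did not single out, gave 4 passing members where 41.0% of the miRNAs passed. This block added miR-15b-5p (-0.35, limma adjusted p = 0.0391), miR-16-2-3p (-0.36, adjusted p = 0.0376) and miR-16-1-3p (0.41, adjusted p = 0.0369). The 2 arms of miR-195a did not pass, at -0.13 (adjusted p = 0.669) for 5p and -0.31 (adjusted p = 0.429) for 3p, nor did miR-15a-5p at 0.08. The ratio of miR-16-1-3p to miR-16-2-3p, the 3p arms of the 2 hairpins of miR-16, was 2.14 ± 0.602 in Ago2 KO and 3.61 ± 0.678 in Ago2 KO/CLIPΔ without overlap (log2 difference 0.78, exact permutation p = 0.0286, adjusted p = 0.2).

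Whether the effect of the deletion differed with and without Ago2 was tested as the interaction of the 2 changes. It passed for 3 of the 7 members, where 49.4% of 249 miRNAs passed. This count is no support for a response of the family, as miR-195a-5p, miR-195a-3p and miR-16-1-3p reached the minimum mean through their levels without Ago2. For miR-195a-5p the interaction was 1.39 on the log2 scale (SE 0.25, adjusted p = 0.000211, limma). This arm was lower in CLIPΔ (20.4 ± 6.30 RPM, SD, n = 4) than in WT (58.8 ± 3.82 RPM) but averaged 204 ± 6.68 RPM in Ago2 KO and 186 ± 16.3 RPM in Ago2 KO/CLIPΔ. The value for miR-195a-3p was 1.21 (SE 0.36, adjusted p = 0.00932), but 0.50 (adjusted p = 0.138) with a pseudocount of 10, which is larger than its level in each CLIPΔ library. That for miR-15b-3p was -1.04 (SE 0.21, adjusted p = 0.000562), since it was higher in CLIPΔ than in WT and lower in Ago2 KO/CLIPΔ than in Ago2 KO. With the block, where 64.7% of the miRNAs passed, miR-15b-5p also passed (-0.58, adjusted p = 0.00976; 0.192 without it). So it did without WT library D (-0.89, adjusted p = 0.00353).

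**Figure D4:**
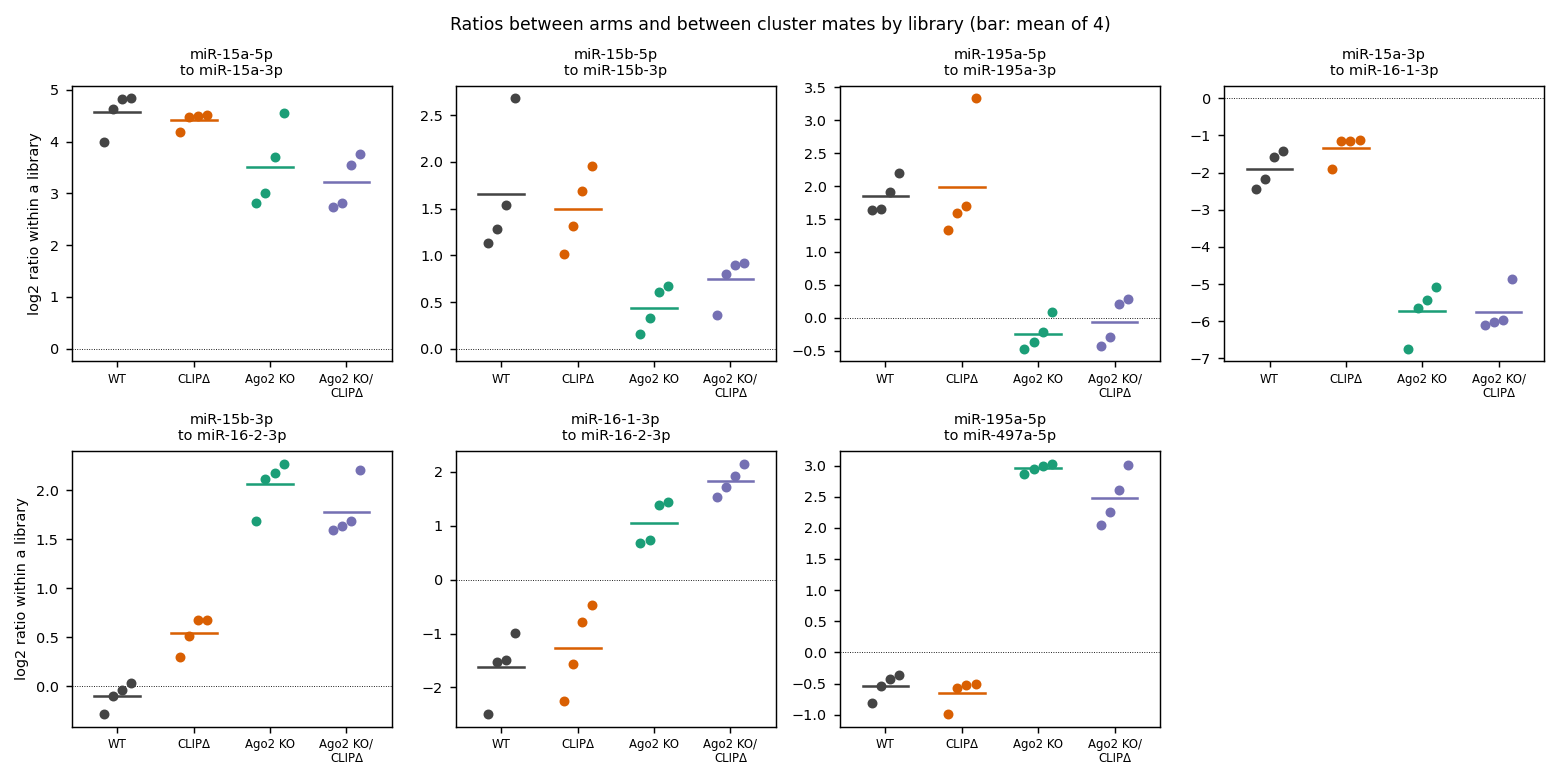
log2 ratio of pairs of members, and of miR-195a-5p to miR-497a-5p, within each small RNA library, by genotype; dots are libraries ordered by value, bars are means of 4 and the dotted line is an equal level of both. The mean linear ratio of miR-195a-5p to miR-497a-5p is 0.696 in WT, 0.645 in CLIPΔ and 7.78 in Ago2 KO, so its dots lie below the line with Ago2 and above it without.

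The relatives with a like seed were followed for comparison. miR-497a-5p, the neighbour of miR-195a, was 24.7 to 27.6 RPM in Ago2 KO, below its 72.5 to 110 RPM in WT, and fell without the filter (-1.66, adjusted p = 3.72e-06) while miR-195a-5p rose. The ratio of miR-195a-5p to miR-497a-5p was thus 7.78 ± 0.392 (SD, n = 4) in Ago2 KO and 5.76 ± 1.74 in Ago2 KO/CLIPΔ, against 0.696 ± 0.0913 in WT. miR-322-5p was 226 to 355 RPM in WT, 186 to 311 in CLIPΔ, 102 to 133 in Ago2 KO and 86.4 to 111 in Ago2 KO/CLIPΔ, and it fell without Ago2 (-1.28, adjusted p = 3.13e-06, against WT). By contrast miR-503-5p, which lacks the last seed base, rose from 185 to 257 RPM in WT to 474 to 569 RPM in Ago2 KO (1.25, adjusted p = 2.82e-05). A shared seed did not go with a shared direction. Of the 6 miRNAs that carry it, miR-15a-5p, miR-16-5p, miR-322-5p and miR-497a-5p fell without Ago2, miR-195a-5p rose and miR-15b-5p did not pass.

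Across the 16 libraries, the tested miRNAs outside the family whose levels were most like those of miR-195a-5p were miR-302b-3p (Pearson r = 0.977), miR-27a-5p (0.966) and miR-224-5p (0.963), of 242 compared. Those most like miR-15b-5p were miR-294-5p (0.759), miR-5121 (0.742) and miR-466d-3p (0.732). These correlations run over 4 genotypes that differ in depth and are given as a description.

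Of the genes that host the hairpins, Smc4 was 101 and 92.4 TPM in WT, 85.8 and 69.0 in CLIPΔ, 34.7 to 38.5 in Ago2 KO and 24.5 to 37.2 in Ago2 KO/CLIPΔ. It fell without Ago2 (log2 change -1.38, SE 0.15, adjusted p = 6.3e-05 against WT, and -1.31, adjusted p = 9.65e-05, for Ago2 KO/CLIPΔ against CLIPΔ), while the miR-15b-3p made from its intron rose. Dleu2 was 1.42 and 1.14 TPM in WT, 1.30 and 1.11 in CLIPΔ, 0.381 to 0.620 in Ago2 KO and 0.366 to 0.981 in Ago2 KO/CLIPΔ. It was below the minimum of 1 TPM in the fit of 12 libraries and, without that minimum, fell in Ago2 KO (-0.63, adjusted p = 0.0069). The gene table held none of the names Mir497hg, Mir497 and Mir195a.

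Among the Argonautes, which carry the mature miRNAs, Ago2 mRNA did not pass between CLIPΔ and WT (-0.06, SE 0.24). Per the paper, Ago2 protein was higher in CLIPΔ than in WT on western blots, without a rise of its mRNA. Protein was not measured in the data used here. Ago2 mRNA fell by 3.13 on the log2 scale in Ago2 KO (limma adjusted p = 5.34e-06). Ago1 was 63.3 and 55.9 TPM in WT, 67.9 and 59.7 in CLIPΔ, 36.8 to 42.3 in Ago2 KO and 38.9 to 49.6 in Ago2 KO/CLIPΔ (-0.59, adjusted p = 0.00123, for Ago2 KO against WT). Ago1 was thus the more abundant Argonaute mRNA in every library, on the TPM scale, which is per length. In the Trim71 CLIP data, 1 of the 498 deposited peaks lay in Ago2, none in the host genes and none within 1000 nt of a mature member.

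The family is known for a set of mRNA targets, and 26 of these were listed from general knowledge. The site complementary to the seed followed by an A, TGCTGCTA (8mer), was in the longest 3'UTR of 16 of the 26 genes (61.54%), against 4.006% of 20970 genes with a 3'UTR. The shorter TGCTGCT was in 24 of 26, against 20.14% of all genes. Bmi1 and Anln, which are counted among the targets below, held neither site. The 3'UTRs of the targets were longer, with a median of 1859 nt against 954 nt, and since such targets were first found in part by this match, the shares are a description. Sites of 5 targets named below are shown with the 8mer in capitals, on the strand of the mRNA (GRCm38), because the target results include a rise, falls and a cyclin without a call among genes holding one.
Ccne1 (chr7:38098023-38098044, minus strand): tcttattttgtaagTGCTGCTA
Hmga1 (chr17:27563343-27563364, plus strand): atacccactattgcTGCTGCTA
E2f3 (chr13:29907387-29907408, minus strand): tggtaccattgagtTGCTGCTA
Cdk6 (chr5:3524531-3524552, plus strand): caagttgcacagggTGCTGCTA
Vegfa (chr17:46018590-46018611, minus strand): cattttcttatatcTGCTGCTA

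In CLIPΔ against WT, 0 of the 23 tested targets passed (limma), as did 0% of all 11642 genes. At an unadjusted p under 0.05 there were 2 targets and 604 genes. The median log2 change of the targets was -0.01, against -0.05 for all genes. The largest differences were those of the cyclin gene Ccnd2 (-0.68), of Cdk6 (-0.61), the kinase partner of the D cyclins, and of the chromatin protein gene Hmga1 (-0.42). That of Hmga1 rested on single libraries, ranging from -0.77 to -0.0663 when 1 library was left out (the latter without WT library 2). Cdk6 was 4.67 and 4.29 TPM in WT and 2.34 and 2.86 TPM in CLIPΔ, without overlap of the 2 libraries each. With all 12 libraries in the fit Cdk6 passed (limma adjusted p = 0.0264), and the share of all genes was not taken for that fit. Cdk6 was the 1 target with a Trim71 CLIP peak, of 498 peaks in all. A link between the peak and the level was not tested.

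In Ago2 KO against WT, 17 of the 21 tested targets passed, 2 higher and 15 lower, where 56.4% of 11287 genes passed. The median log2 change of the targets was -0.58 and that of all genes -0.26. The direction of the calls rested in part on the scaling. Median-of-ratios scaling put the median of all genes at 0 and the share of higher genes among the called at 50.3% in place of 24.8%. With it 13 targets passed, 3 higher and 10 lower, with a median of -0.34, where 6021 of 11287 genes passed. The targets that rose under the scaling by total were the D cyclin gene Ccnd3 (1.11, adjusted p = 0.000118) and Hmga1 (0.79, adjusted p = 0.00852). Ccnd3 was 15.4 and 19.9 TPM in WT and 37.3 to 40.7 TPM in Ago2 KO, so that the groups did not overlap.

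Among the targets that fell, the angiogenic factor gene Vegfa was 26.1 and 20.0 TPM in WT and 5.40 to 10.01 TPM in Ago2 KO (-1.50, SE 0.40, adjusted p = 0.00805). The ubiquitin ligase gene Siah1a changed by -1.47 (adjusted p = 0.00025), the Polycomb gene Bmi1 by -1.21 (adjusted p = 0.000777), and Rictor, which encodes a subunit of mTORC2, by -1.08 (adjusted p = 0.000742). E2f3, a transcription factor gene of the G1/S transition, was 13.5 and 11.52 TPM in WT and 4.42 to 5.76 TPM in Ago2 KO (-1.15, SE 0.12, adjusted p = 4.96e-05). All 4 Ago2 KO libraries lay below both WT libraries for Vegfa and E2f3.

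The genes of mitosis and of the cell cycle kinases moved the same way where they passed, with Kif23 at -0.83, Cdk6 at -0.79, the checkpoint kinase gene Chek1 at -0.74, E2f7 at -0.65, Anln at -0.62 and the phosphatase gene Cdc25a at -0.44. The receptor and signalling genes Insr (-0.58), Fgfr1 (-0.57) and Map2k1 (-0.36) also fell. Several of these calls were lost with median-of-ratios scaling, namely those of Map2k1 (-0.0759, adjusted p = 0.46), Cdc25a (-0.15, adjusted p = 0.16), Fgfr1 (-0.28, adjusted p = 0.0694) and E2f7 (-0.38, adjusted p = 0.101). With libraries 1 and 2, and 3 and 4, of Ago2 KO averaged, 14 of 22 targets passed, where 3583 of 11399 genes did. There E2f7 (limma adjusted p = 0.0647), Hmga1 (0.0561) and Map2k1 (0.0876) did not pass. Not passing were Arl2 (0.41), Ccne1 (0.09, at 158 and 225 TPM in WT and 168 to 236 TPM in Ago2 KO), Wee1 (-0.19, adjusted p = 0.0784) and Ccnd1 (-0.28). Without WT library 1, a fit whose share of all genes was not taken, 12 targets passed. Those that no longer did included Vegfa (-1.32, adjusted p = 0.0737), Hmga1 (0.44, adjusted p = 0.154) and E2f7 (-0.45, adjusted p = 0.117).

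Loss of Ago2 in CLIPΔ cells gave a like count, with 16 of 21 targets passing, 2 higher and 14 lower, where 54.9% of the genes passed. Of the 6201 genes that passed, 1446 were higher and 4755 lower. The median log2 change of the targets was -0.59 and that of all genes -0.25. With median-of-ratios scaling 13 targets passed, 3 higher and 10 lower, with a median of -0.31, where 5864 of 11287 genes passed. With averaged libraries 12 of 22 targets passed, where 3238 of 11399 genes did. Ccnd3 (1.10) and Hmga1 (0.91) again rose, Kif23 (-1.18) and Bmi1 (-1.36) fell, and Cdk6 (-0.19, adjusted p = 0.152) did not pass. Without CLIPΔ library 1, Vegfa (-1.12, limma adjusted p = 0.125), Hmga1 (0.66, adjusted p = 0.0723), Rictor (-0.56, adjusted p = 0.0832) and E2f7 (-0.38, adjusted p = 0.185) no longer passed. In that fit 13 targets passed, and its share of all genes was not taken.

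Between Ago2 KO/CLIPΔ and Ago2 KO, 0 of the 21 targets passed (limma), and none at an unadjusted p under 0.05, where 0.877% of the genes passed. The largest differences were those of Vegfa (0.54), Hmga1 (-0.29) and Kif23 (-0.27). With the replicate block Vegfa passed (adjusted p = 0.0323), where 6.72% of the genes did. Its levels split by library number, at 5.52, 5.40, 9.98 and 10.01 TPM in Ago2 KO and 6.12, 7.57, 18.6 and 17.8 TPM in Ago2 KO/CLIPΔ, and with libraries 1 and 2, and 3 and 4, averaged it did not pass. For the interaction 0 of 21 passed (limma), with 2 at an unadjusted p under 0.05, where 0.647% of the genes passed, and Cdk6 was at 0.60 (adjusted p = 0.142).

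**Figure D5:**
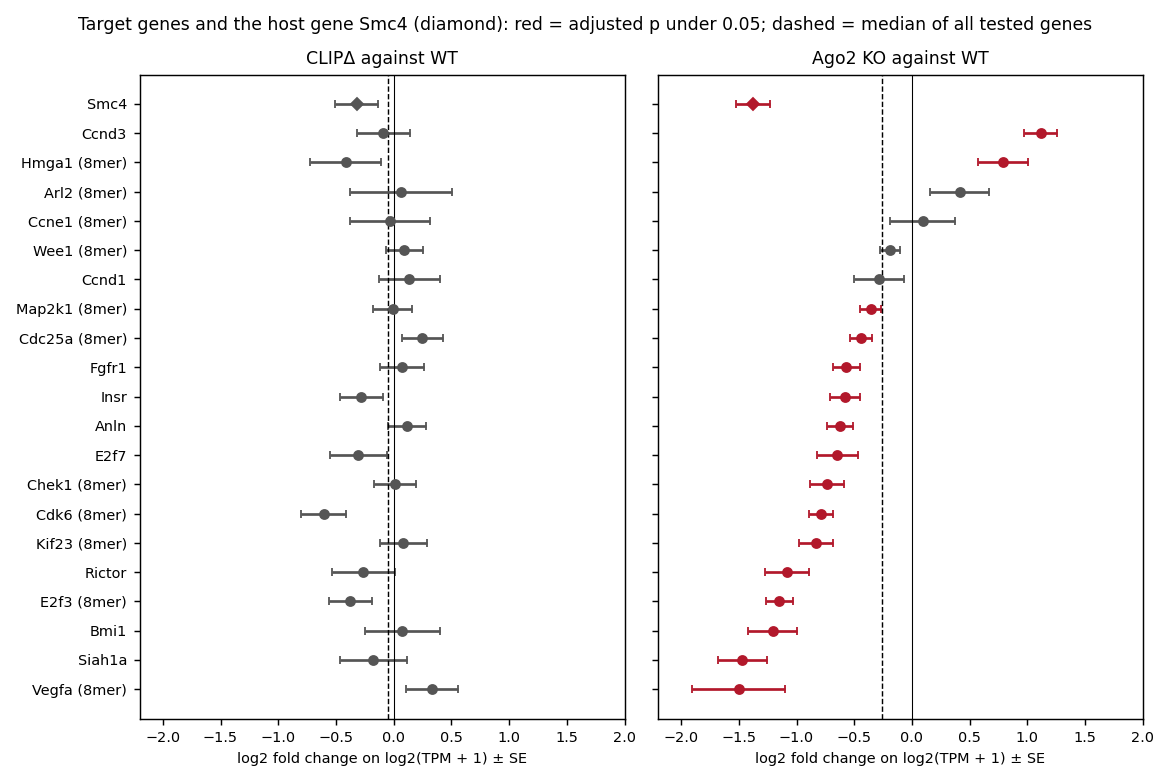
log2 fold change of the named target genes and of the host gene Smc4 (diamond) in the mRNA libraries (± SE, on log2(TPM + 1)) for CLIPΔ against WT and Ago2 KO against WT; genes with the 8mer are marked, red marks an adjusted p under 0.05 and the dashed line is the median of all tested genes. In Ago2 KO against WT the red targets left of 0 reach from -0.36 (Map2k1) to -1.50 (Vegfa), past that median of -0.26, and Ccnd3 (1.11) and Hmga1 (0.79) lie right of it.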

How the data were processed

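Small RNA and mRNA were sequenced in mESCs of 4 genotypes. Per the study's methods and processing notes, reads were trimmed with cutadapt, mapped to mm10 with HISAT2 2.1.0 and counted per mature miRNA or longest transcript, and the authors deposited length-scaled transcript levels (TPM) for 507 miRNAs and 15034 genes. They also deposited 1 list of 498 Trim71 CLIP peaks common to both replicates, with read counts, of which only the positions were used. Columns marked d3 were read as CLIPΔ, the one genotype without another name. The lettered small RNA columns were assigned to genotypes, not to single samples, and the numbered columns to samples by replicate number. No column of per-sample values was left out (0).

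A deposited TPM value divides counts by a length, taken here as the mature length less a base, so reads were recovered from the steps of the values. Of the low values (under 200 reads), 99.633% of single-locus miRNAs came out whole within 0.02 reads. For miRNAs of several loci 48.447% did, and 99.379% once each value was multiplied by its loci. These reads gave the depths and the edgeR 4.0.16 quasi-likelihood alternative. Depth sets the counting error, and what else goes with it was not tested. Library totals were 996976 to 999393 TPM for miRNAs and 998656 to 999501 for genes.

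RPM was the deposited TPM rescaled so that every library had the same total. limma 3.58.1 (R 4.3.3; lmFit, eBayes with trend) was fitted on log2(RPM + 1) for miRNAs with a mean of at least 100 deposited TPM, and on log2(TPM + 1) for genes of at least 1 TPM. The pseudocount of 1 understates changes of low features. CLIPΔ against WT used its own 8 small RNA or 4 mRNA libraries, and the other comparisons all 16 or 12. p-values were adjusted by Benjamini-Hochberg over all tested features (threshold 0.05). The 14 ratio comparisons used two-sided exact permutation tests. Relatives were all miRNAs of the table with the seed of miR-16-5p, and miR-503-5p, and the 3 most alike tested miRNAs were taken by Pearson r for miR-15b-5p and miR-195a-5p. Named targets were those past the threshold or, without any, the 3 with the largest change; the others are named for completeness, except 1 that is counted but not reported here. The members and the lists of targets, hosts, Argonautes and markers were chosen with earlier results of these data known. The steps were tested on simulated data.

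Library marks were checked for pairing by correlating deviations from group means. Same-letter miRNA libraries of WT and CLIPΔ gave r of 0.321 to 0.731 (others -0.676 to 0.274), same-number libraries of the genotypes without Ago2 0.171 to 0.388 (others -0.467 to 0.412), and their mRNA libraries 0.32 to 0.433 (others -0.444 to 0.467). The pairing by letter comes from the data, not the labels. Same-number pairs of the genotypes without Ago2 lay within the range of the others, so the data do not single out the pairing by number. The mRNA libraries of WT and CLIPΔ form only 2 pairs and share a number alone. Sequences are from RefSeq (GRCm38.p6) and sites and hosts from GENCODE M21. Alternatives were another pseudocount (10 or 0.1), no filter, median-of-ratios scaling, a total without let-7 and miR-98, no trend, other libraries in the fit, the block, and leaving out each library. edgeR and averaged libraries were added after the data were seen.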

Additional observations from a re-analysis of the deposited data

Results flagged for a closer look

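A library stood apart from the other 3 of its genotype, by Dixon's criterion, in 13 of 112 sets of 4 values, where chance alone gives about 1 in 20. Among member levels these were miR-15b-5p at 940 RPM in WT library D, miR-16-2-3p at 143 and miR-16-5p at 68.3 RPM in the same library, miR-16-1-3p at 204 RPM in Ago2 KO library 2 and miR-16-5p at 25.2 RPM in Ago2 KO/CLIPΔ library 2. WT library D thus accounted for 3 of these 5 levels, high for miR-15b-5p and low for the other two.

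Among ratios, miR-15a-5p to miR-15a-3p at 18.2, miR-195a-5p to miR-195a-3p at 10.1, miR-15a-3p to miR-16-1-3p at 0.269 and miR-195a-5p to miR-497a-5p at 0.503 stood apart in CLIPΔ. In Ago2 KO/CLIPΔ it was miR-15a-3p to miR-16-1-3p at 0.0341 and miR-15b-3p to miR-16-2-3p at 4.61. Among target genes, Chek1 stood apart at 19.1 TPM in 1 Ago2 KO library and E2f3 at 4.58 TPM in 1 Ago2 KO/CLIPΔ library.

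The effect of the 3'UTR deletion differed with and without Ago2 by the interaction test (limma) for miR-195a-5p (1.39 on the log2 scale), miR-195a-3p (1.21) and miR-15b-3p (-1.04). The first 2 were lower in CLIPΔ than in WT and did not pass between Ago2 KO/CLIPΔ and Ago2 KO, and both reached the minimum mean through their levels without Ago2. miR-15b-3p was higher in CLIPΔ than in WT in every library, without passing the adjusted test, and lower in Ago2 KO/CLIPΔ than in Ago2 KO in every library.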

How the results depend on the processing

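The count of passing members for CLIPΔ against WT (0) was 2 of 9 without a filter, where 136 of 507 miRNAs passed. With edgeR it was 2 of 9, where 98 of 439 did, and in each of these fits the 2 were lower. With the replicate block 2 of 4 passed, both higher, where 125 of 227 miRNAs did. It was 3 with 16 libraries, where 115 of 249 miRNAs passed. With the total lacking let-7 and miR-98 it was 1, where 50 miRNAs passed as higher and 15 as lower. For Ago2 KO/CLIPΔ against Ago2 KO (1) the count was 3 with only its 8 libraries, a fit whose share of all miRNAs was not taken. It was 4 of 7 with the replicate block (102 of 249 miRNAs) and 0 of 5 with averaged libraries (20 of 245 miRNAs). For the interaction (3) it was 1 of 5 with averaged libraries (83 of 245 miRNAs), where miR-195a fell below the minimum mean. The targets gave 1 in place of 0 for CLIPΔ against WT with 12 libraries, a fit whose share of all genes was not taken. They also gave 1 in place of 0 for Ago2 KO/CLIPΔ against Ago2 KO with the replicate block, where 758 of 11287 genes passed. The cause was not tested. The block changed no other call than those given beside the results. No paired analysis was possible because libraries with letters and with numbers share no mark for the comparisons of Ago2 loss, and 4 pairs cannot give a ratio a p below 0.125, so ratios say nothing of stability there. Without single libraries, members passing were 0 for CLIPΔ against WT, 5 to 7 for Ago2 KO against WT, 6 for Ago2 KO/CLIPΔ against CLIPΔ, 1 for Ago2 KO/CLIPΔ against Ago2 KO and 3 to 4 for the interaction. Targets were 12 to 18 for Ago2 KO against WT, 13 to 17 for Ago2 KO/CLIPΔ against CLIPΔ and 0 otherwise. The shares over all features were not taken for these fits.

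Directions turned, all without a call, with edgeR for miR-16-5p in CLIPΔ against WT (-0.0108), miR-15b-5p in Ago2 KO against WT (-0.0533), miR-15a-5p in Ago2 KO/CLIPΔ against Ago2 KO (-0.0221) and miR-497a-5p in Ago2 KO/CLIPΔ against CLIPΔ (-0.30), and with median-of-ratios scaling for the interaction of miR-322-5p (0.0276). Leaving out single libraries gave ranges across 0 for CLIPΔ against WT of miR-16-1-3p (-0.22 to 0.48) and Ago2 (-0.27 to 0.14), for Ago2 KO/CLIPΔ against Ago2 KO of miR-15a-5p (-0.0826 to 0.22) and Ago2 (-0.0148 to 0.19), and for Ago2 KO/CLIPΔ against CLIPΔ of miR-15b-5p (-0.25 to 0.0744) and miR-497a-5p (-0.10 to 0.26). For the interaction they were miR-15a-3p (-0.72 to 0.0046), miR-16-1-3p (-0.0708 to 0.63), miR-16-2-3p (-0.21 to 0.0030), miR-322-5p (-0.19 to 0.0559), miR-503-5p (-0.0659 to 0.33), Smc4 (-0.0844 to 0.23), Ago1 (-0.0232 to 0.16) and Ago2 (-0.0533 to 0.36). For ratios they were miR-15a-5p to miR-15a-3p (-0.54 to 0.0442) and miR-15a-3p to miR-16-1-3p (-0.36 to 0.19) in Ago2 KO/CLIPΔ against Ago2 KO, and miR-195a-5p to miR-195a-3p (-0.31 to 0.36), miR-195a-5p to miR-497a-5p (-0.20 to 0.0024) and miR-15b-5p to miR-15b-3p (-0.34 to 0.17) in CLIPΔ against WT. Of the other values for single members and genes, 649 kept direction and call, 13 gained and 21 lost the call; without single libraries these were 1130, 2 and 11. Depth limits miR-15a-3p most, at 2 to 9 reads per library without Ago2.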
